A study of Drosophila melanogaster with 4 samples.

Results

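The interior of chromosome arm 3L of Drosophila melanogaster was examined for dimethylation of histone H3 on its ninth lysine (H3K9me2) in S2-DRSC cells. The interior is the arm from position 1000001 to 21543557 on FlyBase release 5, which leaves out 1 Mb at the telomere end and 3 Mb at the centromere end. It was tiled into 5-kb windows, 4109 in all, of 33750 windows over the whole release 5 sequence. All 4109 windows are described, and the last one is 3557 bp long. S2-DRSC is a cultured cell line of late embryonic origin, with male as its labelled sex. The study made 2 H3K9me2 chromatin immunoprecipitation (ChIP) samples from formaldehyde-fixed cells, with an antibody that the labels number 2, and 2 input samples. Each ChIP sample has a list of enriched clusters called by the authors against its own input. A further list, called the combined list here, covers the whole series. How the combined list was made is not given, and it may draw on the same 2 ChIP samples. Its match with the replicate lists is therefore no separate evidence of agreement. All samples share the same line, and none carries a treatment or mutation in the labels. The labels do not say that the replicates were separate cultures, and their spread may therefore be technical.

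H3K9me2 is a mark of silent chromatin. In Drosophila it is bound by the protein HP1a and is best known from the heterochromatin around the centromeres. The gene-rich arms carry it more sparsely, and blocks of silent, late-replicating chromatin that lie within them are known as intercalary heterochromatin.

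The 3L interior was sparsely covered, and its coverage was patchy. Replicate 1 clusters held 8.53% of it (1.75 Mb) and replicate 2 clusters 11.5% (2.36 Mb), which gives 10.0 ± 2.10% (mean ± SD, n = 2). The 3 Mb left out beside the centromere stood at 59.8% and 64.5%, and the 1 Mb left out beside the telomere at 8.47% and 19.3%. The step from the interior to the centromere end was far larger than the spread between replicates, which is the contrast that the label of a euchromatic interior implies. At the telomere end the replicates differed from each other by more than they did in the interior. No test across samples was run, because only 1 group of samples has cluster lists. Read depth is not known for these lists, and a base outside a cluster may still carry the mark.

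Most windows held no cluster at all. In replicate 1, 3461 windows (84.2%) were free of cluster bases, and in replicate 2, 3225 windows (78.5%). Over the interiors of the 5 long arms the same shares were 81.7% and 75.1%. No base of any of the 3 lists fell in 3172 windows, 77.2% of the 3L windows, against 73.7% over the 5 interiors. Covered windows ranged from a few bases to the whole 5 kb. Windows covered at 50% or more numbered 314 in replicate 1 (7.64%, against 9.36% over the 5 interiors) and 427 in replicate 2 (10.4%, against 12.6%). Fully covered windows numbered 131 (3.19%, against 3.52%) and 150 (3.65%, against 4.83%). The marked shares of 3L were thus near those of all 5 interiors, which include the more densely covered X.

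The replicates placed the densely covered windows in largely the same positions. Both replicates covered 300 windows at 50% or more, 7.30% of the 3L windows, against 8.84% over the 5 interiors and 7.09% over those of 2L, 2R and 3R. These 300 were 95.5% of the windows so covered in replicate 1 and 70.3% of those in replicate 2. Few of the windows so covered in one replicate had no cluster base in the other, and they lay mostly on one side. In 24 windows replicate 2 reached 50% where replicate 1 had no cluster base, and in 3 windows the reverse held. Among windows covered below 50% such disagreement was more common. There, 245 windows had clusters in replicate 2 and none in replicate 1, and 30 the reverse. Counted in bases, both replicates covered 1.61 Mb, while 0.138 Mb was found in the first replicate alone and 0.747 Mb in the second alone. Bases common to both made up 64.6% of those covered in either.

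Densely covered windows came in runs. Of the 300 windows, 54.2% were directly followed by another such window, beside 7.30% for all windows of the arm interior. A cluster longer than a window by itself gives neighbouring covered windows, so this share describes the map and tests nothing. The 300 windows formed 138 runs, of which 76 were a single window and 40 were 2 or 3 windows long. The remaining 22 runs, of at least 4 windows or 20 kb, are called domains here. They held 129 windows, 43.0% of the 300, in 645 kb or 3.14% of the interior. The median domain was 25 kb long.

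Domains were concentrated towards the telomere. Of the 22, 14 started before 5 Mb, 5 between 5 and 20 Mb, and 3 beyond 20 Mb. Gaps under 20 kb between neighbouring domains numbered 6, and all lay among these 14. Breaks of 5 or 10 kb thus raised the count of domains there. Cut into 4 segments of 5.14 Mb, the interior was covered at 13.7% and 15.7% (replicates 1 and 2) in the segment nearest the telomere. The second segment stood at 5.58% and 8.16%, the third at 6.93% and 10.1%, and the fourth, nearest the centromere, at 7.88% and 11.9%. Replicate 1 and replicate 2 thus both had their highest value in the segment nearest the telomere and their lowest in the second. That first segment held 40.3% of all covered bases of the interior in replicate 1 and 34.3% in replicate 2. Its domains spanned 420 kb, against 60, 75 and 90 kb in the other segments.

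**Figure D1:**
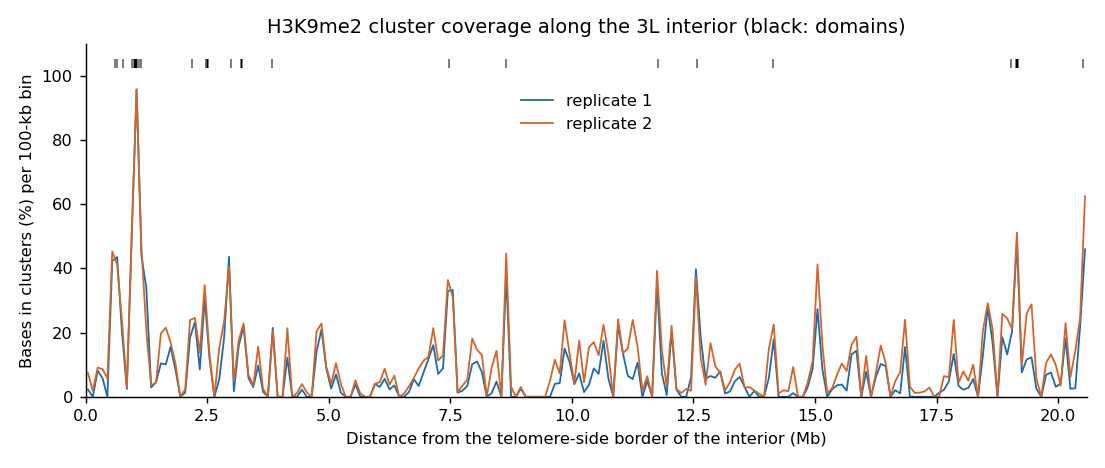
Share of bases in clusters (%, vertical axis) in 100-kb bins along the 3L interior, against the distance from its telomere-side border (Mb), with a line for each replicate and black marks for the 22 domains. The tallest peak lies about 1 Mb in, 14 domains lie in the segment nearest the telomere, and the lines of both replicates rise and fall together.

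The densest stretch ran from 1940001 to 2150000. In these 210 kb, 90.4% of bases were in clusters in replicate 1, 91.2% in replicate 2 and 91.1% in the combined list. It held 10.8% of the covered bases of the whole interior in replicate 1 and 8.11% in replicate 2. Replicate 1 and replicate 2 each divided it into 5 clusters, with breaks at nearly the same places. So did the combined list, which may draw on the same samples. The third and longest cluster ran from 1972406 to 2064467 in replicate 1 (92.1 kb) and from 1972029 to 2064571 in replicate 2 (92.5 kb). A break of 4.22 kb in replicate 1 and 4.12 kb in replicate 2 separated it from the fourth, of 39.1 and 40.2 kb. A further break of 5.24 and 4.26 kb preceded the fifth, of 36.1 and 36.5 kb. The second cluster, of 16.1 and 16.0 kb, lay 8.51 and 8.10 kb before the longest one. The edges of the longest cluster differed between replicates by far less than the breaks beside it. Without these clusters the segment nearest the telomere still had 10.04% of its bases covered in replicate 1 and 12.02% in replicate 2, against 6.79% and 10.1% over the other 3 segments together. In replicate 2 that left it level with the segment nearest the centromere (11.9%), whereas in replicate 1 it stayed above each of the others. It then held 10 of 18 domains.

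**Figure D2:**
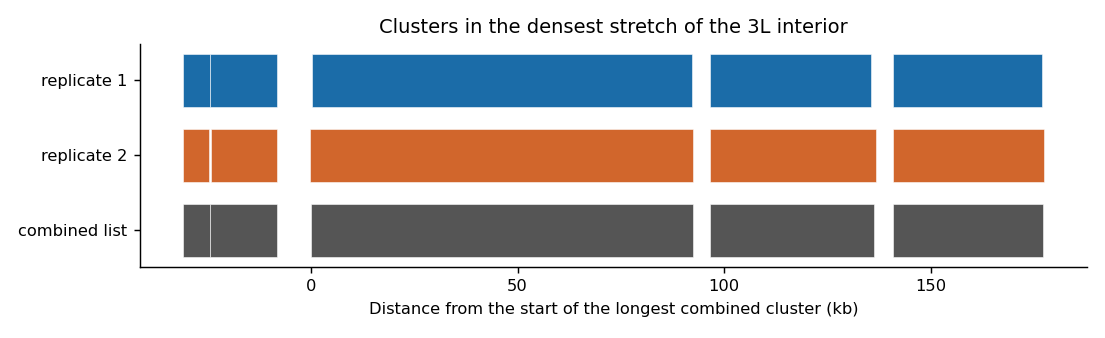
Clusters of replicate 1, replicate 2 and the combined list in the densest stretch, against the distance (kb) from the start of the longest combined cluster. The 3 lists show the same 5 clusters, and the 3 wider breaks, between 4.12 and 8.51 kb in the replicates, stand at the same positions.

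The domain of 1970001 to 2065000 (95 kb) was the longest, covered at 96.9% in replicate 1 and 97.4% in replicate 2. Its neighbours in the dense stretch were the domains of 2070001 to 2110000 (40 kb, 94.5% and 97.1%), 2115001 to 2150000 (35 kb, 97.6% and 99.0%) and 1940001 to 1965000 (25 kb, 90.6% and 89.0%). Each was separated from the next by 5 kb, a single window under the threshold. Of the 22 domains, 5 were 25 kb long, and 3 of them were taken into the 10 longest by position, which favours the telomere side. The other 3 of the 10 longest that started before 5 Mb lay outside the dense stretch. The domain of 3485001 to 3510000 (25 kb) was covered at 88.8% and 95.3%, and that of 4185001 to 4220000 (35 kb) at 88.7% and 91.3%. The domain of 3975001 to 4000000 (25 kb) was the only one of the 22 covered completely in both replicates. A single cluster of 30.0 kb in the combined list, 3972506 to 4002530, spanned it.

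Beyond 5 Mb domains stood far apart. The second longest of all, 20120001 to 20170000 (50 kb), lay near the centromere side, with coverage of 91.3% in replicate 1 and 93.3% in replicate 2. It followed the domain of 20000001 to 20020000 (94.8% and 96.9%) at a distance of 100 kb. Between 5 and 20 Mb the longest domains were 9620001 to 9655000 (35 kb, 92.1% and 95.4%) and 12750001 to 12780000 (30 kb, 97.4% and 99.0%). The coverage of these 2 domains was within the range of the dense stretch, but each stood alone, 1145 and 3095 kb after the domain before it. Domains of 25 kb, as long as the shortest of the 10 longest, lay there at 8450001 to 8475000 (93.2% and 90.5%) and at 13555001 to 13580000 (81.7% and 84.5%). The widest interval without a domain, 15130001 to 20000000, spanned 4870 kb, with 5.45% of its bases in replicate 1 clusters and 8.83% in replicate 2 clusters. It was not free of longer clusters, with a longest one of 18.7 kb in replicate 1 and 22.8 kb in replicate 2. The interval from 4830001 to 8450000 (3620 kb) followed in width, at 4.49% and 6.34%.

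Over all 22 domains, coverage lay between 71.8% and 100% in replicate 1 and between 76.7% and 100% in replicate 2. The least covered was the one nearest the centromere, 21495001 to 21515000, at 71.8% and 76.7%. Replicate 2 was the higher in 17 domains, replicate 1 in 4, and 1 was equal. The difference was widest at 3170001 to 3190000, with 81.7% in replicate 1 and 98.5% in replicate 2. The 10 longest clusters of the combined list, 20.6 to 92.4 kb long, all touched domains, and their lowest coverage was 92.2% in replicate 1 and 93.6% in replicate 2. In replicate 1, 8 domains each overlapped exactly 1 cluster, and in replicate 2, 10 did. No domain had more than 4 clusters in either list. Of the 129 domain windows, 80 were fully covered in both replicates. The rule chose domains for high coverage in both lists, so these values describe them and are no separate evidence of agreement.

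The clusters themselves were mostly short. Counted by midpoint, replicate 1 had 381 clusters in the interior (18.5 per Mb) and replicate 2 had 567 (27.6 per Mb). Their median lengths were 2534 and 2368 bp, and 10% were longer than 9738 bp in replicate 1 and 8262 bp in replicate 2. The shortest was 1001 bp in each list. Few long clusters held much of the length. The longest 38 clusters of replicate 1 held 41.2% of its summed cluster length, and the longest 57 of replicate 2 held 40.7%, 10% of the clusters in each. Clusters of 20 kb or more numbered 8 and 11, and held 17.1% and 16.2% of the length.

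Spacing varied over a wider range than length. The central 80% of gaps ran from 921 bp to 132 kb in replicate 1 and from 389 bp to 92.4 kb in replicate 2. The median gap between successive clusters was 16.0 kb in replicate 1 and 10.8 kb in replicate 2, while the mean gaps were 49.3 and 32.1 kb. Gaps of at most 5 kb made up 31.3% of 380 gaps in replicate 1 and 36.0% of 566 in replicate 2. At the other end, 111 gaps (29.2%) and 108 gaps (19.1%) exceeded 50 kb. The typical gap was thus shorter in replicate 2, which had more clusters, but the count of gaps above 50 kb was nearly the same in both lists. Their extent was not. Stretches of at least 50 kb without a cluster of the list took up 74.9% of the interior in replicate 1 and 62.0% in replicate 2. Isolated clusters, with no other cluster of the list within 50 kb on either side, numbered 31 in replicate 1 and 22 in replicate 2. Replicate 2 met all 31 isolated clusters of replicate 1, whereas replicate 1 met 9 of the 22 isolated clusters of replicate 2.

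**Figure D3:**
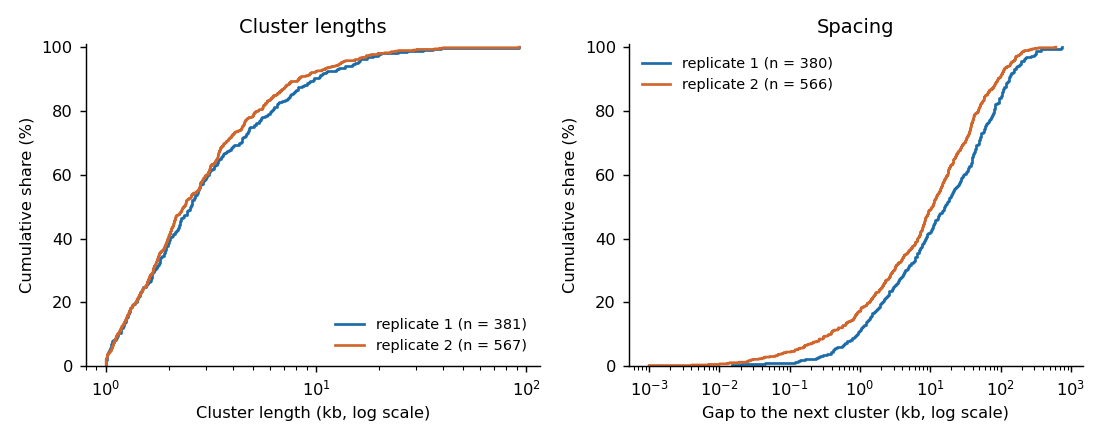
Cumulative share of clusters (%) against cluster length (left) and of gaps against the distance to the next cluster (right), both in kb on a log scale, with a line for each replicate (a gap of 0 bp is drawn at 1 bp). The length curves nearly coincide, with medians of 2534 and 2368 bp, and the gap curve of replicate 2 lies to the left, with a median of 10.8 kb against 16.0 kb.

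Agreement between replicates rose with cluster length. Under 2 kb, replicate 2 met 112 of 150 replicate 1 clusters (74.7%), and replicate 1 met 43 of 233 replicate 2 clusters (18.5%). From 2 to 5 kb the shares were 94.9% of 136 and 77.6% of 210. From 5 kb upwards every replicate 1 cluster was met, and every replicate 2 cluster but 1. Long clusters have a better chance of touching another map by their length alone. In all, 45 replicate 1 clusters (11.8%) and 238 replicate 2 clusters (42.0%) met none. The unmet clusters of replicate 2 were short, at a median of 1488 bp, whereas the met ones had a median of 3743 bp. Their median scores within that list were 0.803 and 1.04. The score is the authors' own value per cluster on a scale that is not defined.

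**Figure D4:**
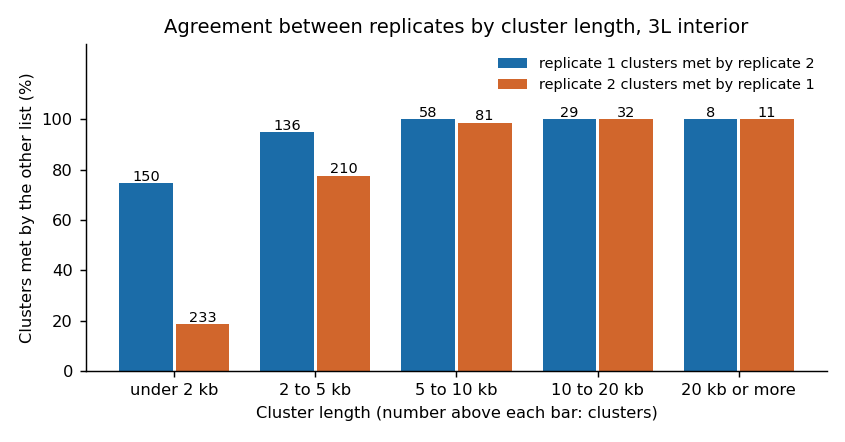
Share of clusters (%) met by at least 1 base of the other replicate's list, by cluster length, with the number of clusters above each bar. The bars differ most under 2 kb, at 74.7% for replicate 1 clusters and 18.5% for replicate 2 clusters, and reach 100% from 10 kb on in both lists.

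Where a single cluster of one list faced a single cluster of the other, edges lay close together. There were 255 such pairs, and the median distance between corresponding edges was 364 bp over 510 edges. Of these edges 59.8% lay within 500 bp of each other. The replicate 2 cluster was the longer in 221 of the 255 pairs (86.7%), by a median of 711 bp over all pairs. Over the whole lists the median cluster was the shorter one in replicate 2.

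The replicates differed least in the segment nearest the telomere. The ratio of replicate 2 to replicate 1 coverage was 1.15 in the segment nearest the telomere and 1.46, 1.46 and 1.51 in the other segments in order. The shared part of the covered bases was 76.2% in the segment nearest the telomere, and 59.4%, 54.7% and 61.4% in the others. That segment nearest the telomere was also the most densely covered. In each of the 20 full megabases of the interior replicate 2 was the higher, with ratios from 1.04 to 1.92. Across these megabases the ratio and the mean coverage had a Spearman rank correlation of -0.641, a description, since both use the same values. Position and density were not separated. The highest ratio belonged to the megabase from 18000001, covered at 2.50% and 4.80%, and the lowest to that from 13000001, at 10.5% and 10.9%. The near-equal totals of that megabase were not the same bases, since 48.9% of the bases covered in either were shared.

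Large differences in single places were short. Runs of windows that differed by at least 50 percentage points numbered 44 with replicate 2 higher and 5 with replicate 1 higher, and none was longer than 2 windows. The 5 named here rank first by the difference summed over their windows, which favours runs of 2 windows. At 13535001 to 13545000, mean window coverage was 93.5% in replicate 1, 4.24% in replicate 2 and 51.8% in the combined list. At 2605001 to 2615000 the values were 0.690%, 64.1% and 49.1%, and at 16080001 to 16090000 they were 16.9%, 75.8% and 61.4%. The other 2 named runs were single windows. The one at 9395001 to 9400000 was uncovered in replicate 1 and covered at 93.0% in replicate 2. The one at 2210001 to 2215000 had 92.2% coverage in replicate 1 and none in replicate 2.

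Most of the interior lay in long stretches with no cluster in any of the 3 lists. Stretches of at least 50 kb numbered 106 and made up 12.4 Mb, 60.1% of the interior. Of these, 53 were at least 100 kb long and 8 at least 200 kb. They were found along the whole interior, with 26, 29, 27 and 24 of them in the 4 segments from the telomere side. The segment with the most domains thus had about as many cluster-free stretches as the others, and they took up 60.5% of it, against 67.9%, 59.9% and 52.2% of the other segments.

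The longest cluster-free stretch, 612 kb, ran from 9921884 to 10533721 and was bounded on both sides by replicate 2 clusters. In replicate 1 the same place was free for 756 kb and in the combined list for 652 kb. The replicate 1 stretch contained 3 clusters of replicate 2, of 1508 to 3447 bp. The next stretches lay at 6609140 to 6957623 (348 kb), 4832318 to 5140099 (308 kb) and 15541746 to 15810035 (268 kb). The stretch at 4832318 to 5140099 began directly after the domain of 4810001 to 4830000, so a densely covered and a cluster-free stretch stood side by side there. The length of this cluster-free stretch was similar in each list, at 309 kb in replicate 1, 311 kb in replicate 2 and 308 kb in the combined list. The remaining 6 of the 10 longest measured between 197 and 248 kb and started at 14819539, 6223382, 2834798, 20529728, 5506599 and 4610570. Of the 10 longest, 4 (starting at 6223382, 6609140, 4832318 and 5506599) lay in the interval from 4830001 to 8450000 that held no domain.

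A stretch without clusters in one replicate was not always without them in the other. From 17870452 to 18587810 replicate 1 had no cluster over 717 kb, and the combined list had none over nearly the same 717 kb. Replicate 2 had 7 clusters within it, of 1225 to 1680 bp, with scores of 0.527 to 1.51 in that list. These 7 were all short, and the combined list had no cluster at their places.

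Long clusters tended to have high scores. In the replicate 1 list the median score rose from 0.663 for clusters under 2 kb through 0.827, 1.33 and 1.58 to 1.90 for those of 20 kb or more. In the replicate 2 list it rose from 0.724 through 0.901, 1.42 and 1.74 to 1.81. The top cluster of replicate 1, at 2068689 to 2107787 (score 2.46), lay in the dense stretch, as did the fourth and the fifth of that list, and replicate 2 covered these 3 at 99.98%, 99.8% and 100%. The third, 17862520 to 17865228 (score 2.18), was short at 2.71 kb and was fully covered in replicate 2. The second, 18587811 to 18589055 (1.25 kb, score 2.30), met no replicate 2 cluster. In replicate 2 the top 3 were all under 2 kb and met no replicate 1 cluster. They lay at 20473613 to 20475549 (score 4.14), 14818538 to 14819538 and 15290107 to 15291107 (both 2.97). The last 2 were each 1001 bp long, the shortest length of any interior cluster in that list. The fourth and the fifth, 17865290 to 17871189 (2.79) and 11602269 to 11607194 (2.75), were covered in replicate 1 at 74.1% and 90.9%. A high score alone therefore did not mark a cluster present in both lists. Across the 255 facing pairs the scores had a Spearman rank correlation of 0.826, a description across regions that share the same 2 lists.

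Set beside the interiors of the other long arms, cut by the same borders, 3L lay near but below 2L and 2R in amount, and above 3R. It differed in layout. Mean coverage was 10.9 ± 2.93% on 2L, 11.6 ± 1.96% on 2R, 7.51 ± 1.87% on 3R and 21.1 ± 4.40% on X (SD, n = 2). Replicate 2 was above replicate 1 on every arm, so the arms are compared within each replicate. In replicate 1, 3L (8.53%) lay below 2L (8.87%) and 2R (10.2%) and above 3R (6.19%). The place of 3L was the same in replicate 2, where 3L (11.5%) lay below 2L (13.0%) and 2R (12.9%) and above 3R (8.83%). Both X values (18.03 and 24.2%) lay above all of these. Domains numbered 10.7 per 10 Mb on 3L, 11.6 on 2L, 11.7 on 2R, 5.02 on 3R and 20.1 on X. The layout was not alike. On 3L 14 of 22 domains lay in the 1 of 4 segments nearest the telomere, against 3 of 22 on 2L, 4 of 20 on 2R, 3 of 12 on 3R and 7 of 37 on X. Among the 14 on 3L, 6 gaps between neighbouring domains were under 20 kb, which raised that count. Such gaps were not counted on the other arms. On 2L, 2R and X the segment nearest the centromere held more domains, with 11, 10 and 17, where 3L and 3R each had 3. In that segment the 3L interior was covered at 7.88% and 11.9%, 2L at 11.8% and 16.2%, 2R at 16.2% and 19.6%, 3R at 6.59% and 9.17%, and X at 26.3% and 32.3%. The difference in layout between arms was not tested, since the arms are single sequences and not replicates.

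**Figure D5:**
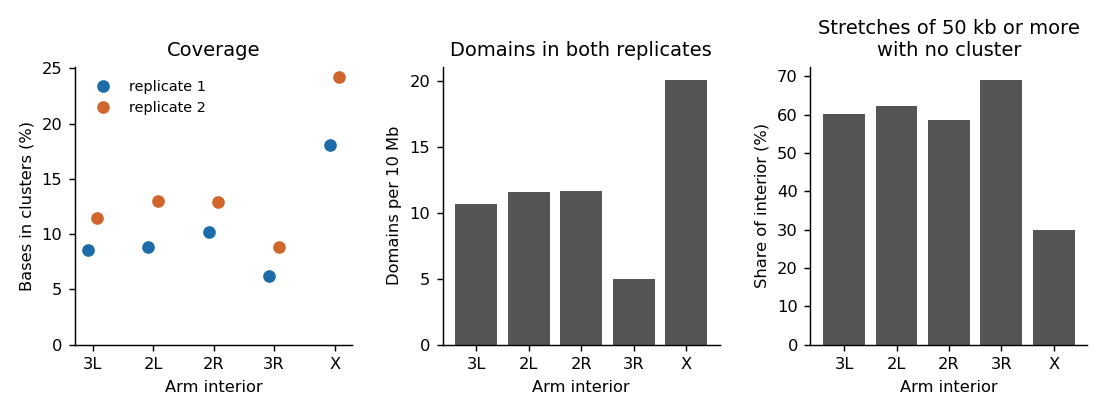
The 5 arm interiors compared by coverage in each replicate (left, % of bases), by domains per 10 Mb (middle) and by the share of the interior in stretches of 50 kb or more with no cluster in any list (right, %). 3L lies near 2L and 2R in all 3 panels, 3R is lower in coverage and domains, and X is higher in both and has the smallest cluster-free share (29.9%, against 60.1% on 3L).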

How the data were processed

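Members, lists and thresholds were chosen with earlier results of these data known. The deposited files list enriched clusters by start, end and score, on FlyBase release 5 per the file headers. Per the labels, each ChIP list was called by the authors against 1 input. Bowtie 0.12.7 is named in the submitters' processing notes; which program called clusters, and at what threshold, is not given in the sources used here. Depth is unknown. The score was deposited by the authors on an undefined scale and was used only within a list.

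Coverage was counted per base in 5-kb windows with Python 3.11.15 and NumPy 2.4.6, clusters being assigned to the interior by midpoint; SciPy 1.17.1 gave rank correlations. Functions were tested on simulated clusters, and 5 of 5 quantities were recovered. Regions named were the 10 longest domains, cluster-free stretches and combined clusters, the 5 highest scores per list and the 5 largest replicate differences. Alternatives were score, joining, window size, thresholds, borders, lists and replicates. Genes and sequences were not used here.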

Additional observations from a re-analysis of the deposited data

How the results depend on the processing

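Of 65 recomputed values of 8 results, 38 were counted as kept, meaning a count within 1.5 times, a mean within 1 SD, or a share equal to 3 digits. Of the 38, 4 could not have changed, because each of 2 replicates lies within 1 SD of their mean. The number and share of cluster-free stretches could not change on joining clusters either, because joining fills only gaps of at most 1 kb. When only clusters that reached the interior median score of their list were used, mean coverage was 7.64% and the cluster number 238. The median length was 4318 bp, the shared part 66.3% and the cluster-free share 74.2%. Fewer clusters, and so less coverage, remain by construction. The greater median length is not fixed by the rule, and goes with the higher scores of long clusters. Joining clusters within 1 kb gave a median length of 2900 bp and a shared part of 64.7%. Leaving out a further 1 Mb at each end gave a shared part of 63.2% and a cluster-free share of 61.4%. Windows covered in both replicates numbered 181 at a threshold of 80% and 503 at 20%, and 1630 and 126 with 1-kb and 10-kb windows. The last 2 counts are in another unit, since the total number of windows changes with their size, and cannot be set directly beside the 300. Domains numbered 9 at 80%, 11 with 1-kb windows, where any single uncovered kb ends a run, and 62 with runs of 2 windows. Cluster-free stretches of 20 kb numbered 213 (77.5% of the interior) and those of 100 kb 53 (42.3%). With clusters of 2 kb or more, the number was 282.5 and the median length 4032.5 bp. The cluster-free share was 68.6% for the combined list, and 60.7 to 68.1% without either replicate. Of the clusters of both replicates pooled, 63.6% had at least 50% of their length in the other replicate's list. This is a share of clusters and not of bases, and the pooled value hides a difference between the lists. Under 2 kb, 105 of 150 replicate 1 clusters met this rule, against 32 of 233 replicate 2 clusters, while from 10 kb on all did in both lists. Without the clusters of the densest stretch, chosen after the data were seen, the shared part of the covered bases was 61.8%. The comparison with gene lists was left out. No paired analysis was possible because cluster lists exist for 1 group only.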

Other observations

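The combined list gave its highest score in the 3L interior, 3.32, to a cluster of 1002 bp at 18587828 to 18588829, a place singled out after its values were seen. It was fully covered in replicate 1 and uncovered in replicate 2, and it ends the 717 kb stretch in which the combined list had no cluster. Among the 20 highest scores of each list, clusters under 2 kb numbered 1 in replicate 1, 3 in replicate 2 and 4 in the combined list, and clusters of 10 kb or more numbered 13, 8 and 10. Of the combined list's bases in the interior, 76.0% lay in both replicates and 3.96% in neither.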
